A study of Mus musculus with 3 samples.

Results

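Tumor2 was one of the clusters to which the cells of 3 mouse melanomas had been assigned, and its members were the cells that carried this name in the deposited cell table. It held 357 of 12670 cells, of which 349 (97.8%) lay in the tumor that regressed under vemurafenib, 4 in the untreated tumor and 4 in the tumor that progressed under vemurafenib. The other cluster named as tumor was Tumor1, with 61 cells in the regressed, 44 in the untreated and 156 in the progressed tumor. Unless stated otherwise, Tumor2 stands below for the 349 cells of the regressed tumor.

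Messenger RNA was counted in single cells of 1 untreated tumor, 1 tumor that had regressed under vemurafenib, an inhibitor of the mutant Braf kinase, and 1 tumor that had progressed under it. All 3 mice were C57BL/6, and by the study's methods its melanomas carried a BrafLSL.V600E allele switched by Tyr.CreER, a recombinase driven by the tyrosinase promoter and started by tamoxifen on the skin, in part with a Rosa26LSL.tdTomato reporter. The labels do not give the genotype, age or sex of each animal. The model is limited in that the recombinase acts only where the tyrosinase promoter is active, and that each group was 1 tumor, so treatment, animal and library cannot be told apart and no test between tumors was possible.

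Tumors of this kind arise from melanocytes, which descend from the neural crest, as do Schwann cells, and melanoma cells can move between a pigmented state with Mitf target genes and states closer to the neural crest. When oxygen is short, the hydroxylases that mark the Hif proteins for destruction slow down. Hif1a with its partner Arnt then binds short sequences such as ACGTG near genes of glucose uptake, glycolysis, lactate export, mitochondrial turnover and vessel growth. Many of these genes are also driven by other signals, among them growth factor pathways and nutrient stress.

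Tumor2 made up 9.37% of the cells of the regressed tumor (95% Clopper-Pearson interval 8.45 to 10.3), against 0.0977% (0.0266 to 0.2499) in the untreated and 0.0825% (0.0225 to 0.211) in the progressed tumor. Among Tumor1 and Tumor2 cells together it was 85.1% in the regressed tumor (81.3 to 88.4), 8.33% for the untreated tumor and 2.50% for the progressed tumor. All intervals given here cover counting error only. The cells were shallow, with a median of 768 unique molecular identifiers (UMIs, each standing for 1 captured RNA molecule) and 604 genes per cell and a range of 404 to 12603 UMIs. A total of 228 of the 349 cells held under 1000 UMIs. Tumor1 cells of the same library had a median of 1712 UMIs, and among the 18 regressed clusters with at least 20 cells only the mitochondria-rich cluster was shallower, at 602. Counted among cells of at least 1000 UMIs, Tumor2 was 4.0% of the regressed tumor. Mitochondrial transcripts took 0.994% of Tumor2 UMIs and 1.76% of Tumor1 UMIs, whereas ribosomal protein transcripts took 4.65% and 2.21%. Malat1, a nuclear RNA, took 2.83% and 6.26%.

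**Figure D1:**
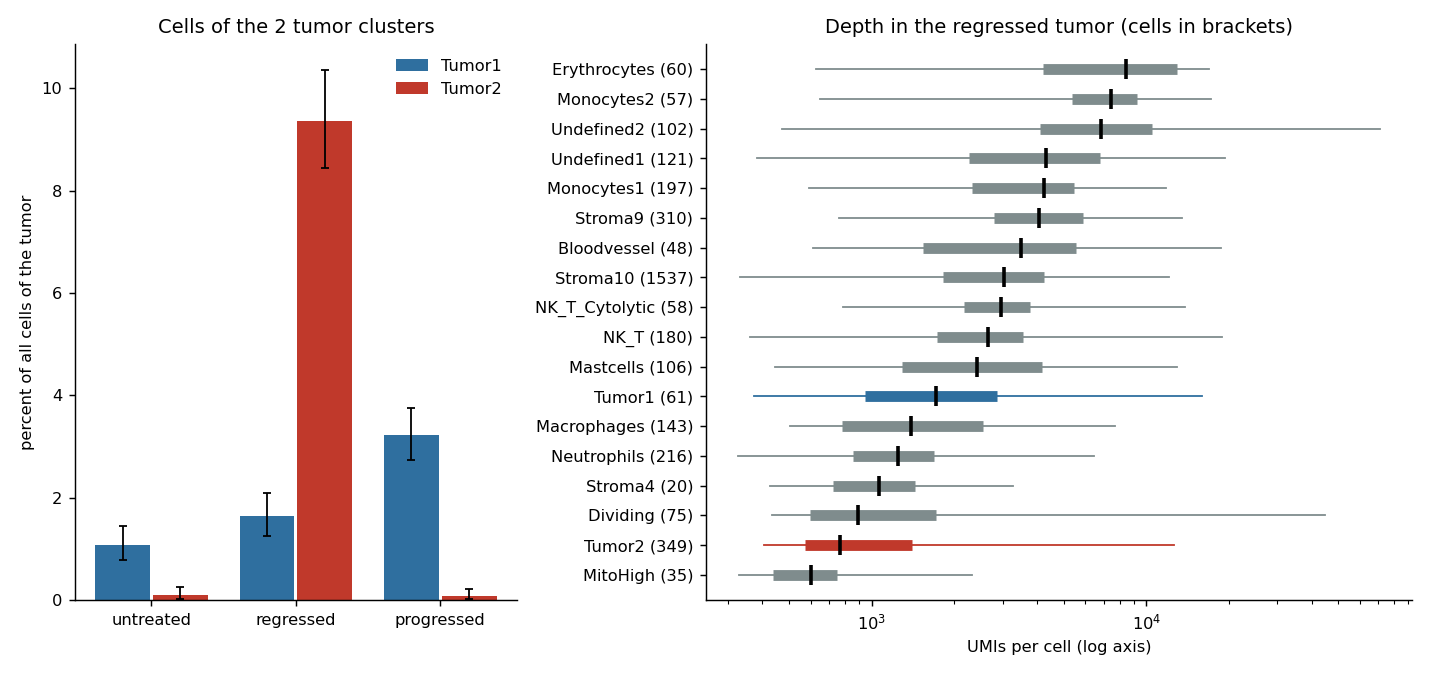
Left, percent of the cells of each tumor assigned to Tumor1 and Tumor2, with exact 95% intervals for counting error. Right, UMIs per cell (log axis) in the 18 regressed clusters with at least 20 cells, with the median (black), the quartiles (bar) and the full range (line). Tumor2 stands at 9.37% in the regressed tumor and below 0.1% in the others, and its median of 768 UMIs is the second lowest.

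The name was checked against its marker genes. The transgene feature tWPRE stood at 1290.0 CPM (the summed UMIs of a group scaled to a total of 1000000) in Tumor2, from 574 UMIs, and at 1509 CPM in regressed Tumor1. The rest of the regressed tumor lay at 71.0 CPM. tdTomato itself was nearly silent in the counts, with 8 UMIs in Tumor2 and 0 in regressed Tumor1. A transgene UMI was present in 174 of 349 Tumor2 cells, 49.9% (44.5 to 55.2), and in 65.6% of Tumor1 cells. After every cell was thinned to 300 UMIs, tWPRE was seen in 28.4% of Tumor2 cells (23.7 to 33.4), in 31.1% of Tumor1 cells (19.9 to 44.3) and in 0 of 180 cells of the regressed NK_T cluster, which should lack it, an upper limit of 2.03%. Without thinning the NK_T share was 11.1%, at a median of 2653 UMIs against 768 in Tumor2. Sox10, a transcription factor that neural crest cells, Schwann cells and melanoma cells share, was at 438 CPM in Tumor2, 814 in Tumor1 and 28.4 in all cells outside Tumor2. By these markers the cells as a group carried the transgene and a neural crest gene, so the label of a tumor cell cluster was kept. This does not hold cell by cell, since 131 of the 349 held a Sox10 UMI. In Tumor1 of the untreated and progressed tumor, with medians of 3772 and 4721 UMIs, 97.7% and 97.4% of cells held a transgene UMI.

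Of the genes that gave Tumor2 its description, Spp1 (osteopontin, a secreted matrix protein) was seen in 13.8% of Tumor2 cells at 300 UMIs (10.3 to 17.8), in 0% of Tumor1 and 4.44% of NK_T cells, and in 25.8%, 13.1% and 23.9% before thinning. Gpi1, the second enzyme of glycolysis, was seen in 30.7% of Tumor2, 6.56% of Tumor1 and 3.89% of NK_T cells (54.2%, 16.4% and 21.1% before thinning). For Bnip3, a mitochondrial outer membrane protein that directs mitochondria to autophagy, these thinned shares were 10.9%, 0% and 0%. Ero1a, the oxidase that feeds disulfide bonds into the endoplasmic reticulum, gave 13.2%, 0% and 1.11%. By the CPM of summed UMIs each of these 4 genes stood highest in Tumor2 among the 18 regressed clusters. By the share of cells with a UMI before thinning, other and deeper clusters passed it for 3 of them, with Spp1 in 49.1% and Gpi1 in 54.4% of Monocytes2 cells and Bnip3 in 29.3% of NK_T_Cytolytic cells, against 24.6% of Tumor2 cells. The clusters were made by the authors from the expression of these same genes, so every difference between Tumor2 and other clusters is given below as a description and tests nothing.

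**Figure D2:**
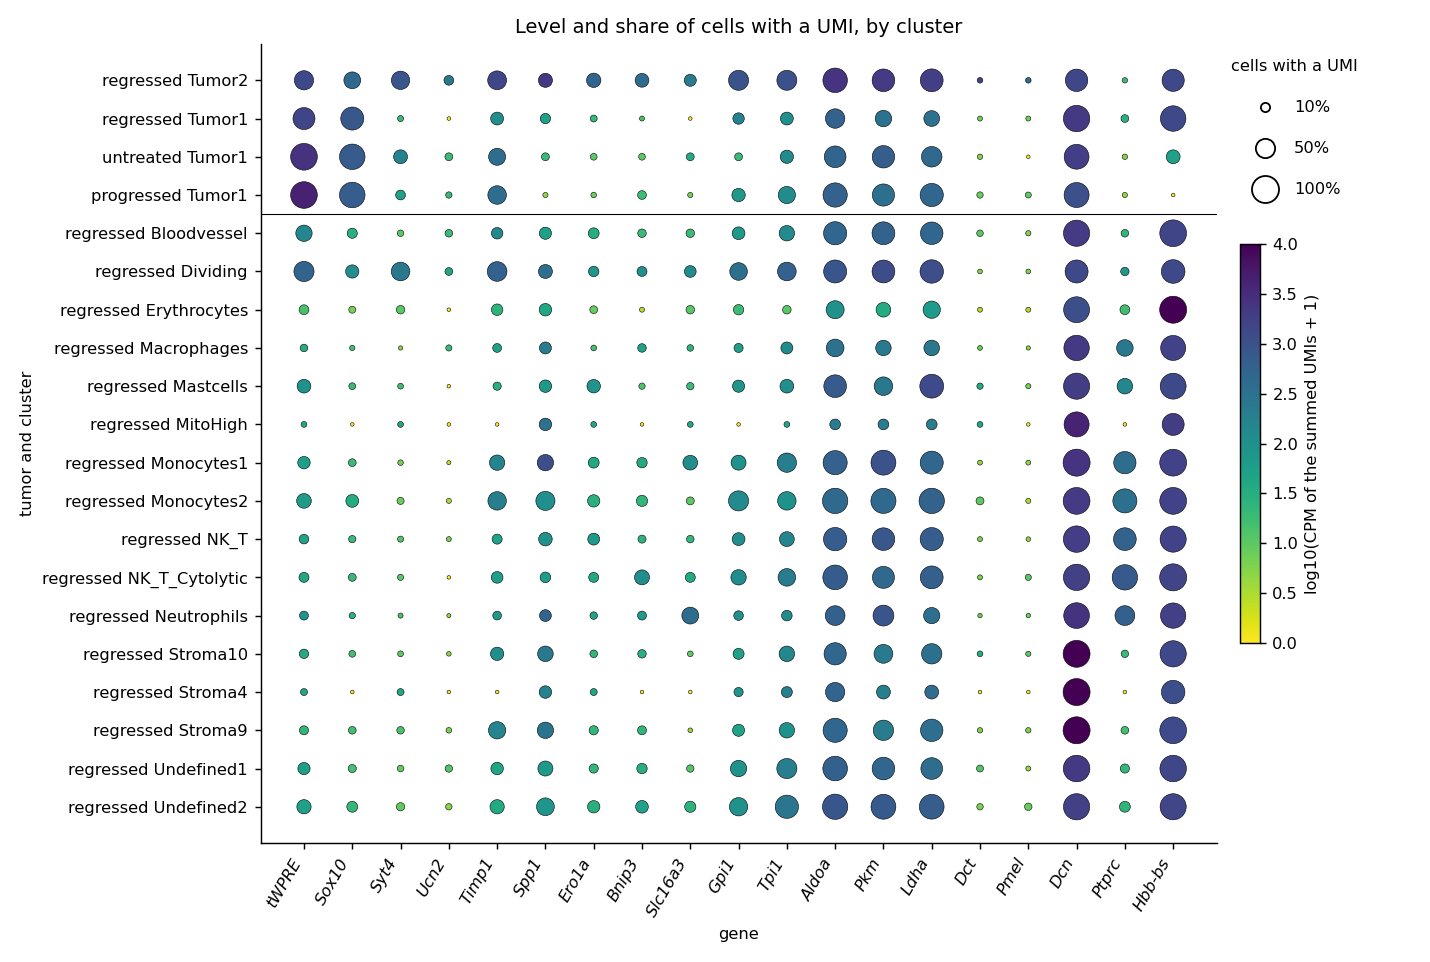
Level (colour, log10 of the CPM of summed UMIs plus 1) and share of cells with at least 1 UMI (dot area) of 19 genes in Tumor2, in Tumor1 of the 3 tumors and in the other regressed clusters with at least 20 cells. The glycolysis and hypoxia genes in the middle are darkest in the top row except Slc16a3, which is darkest in neutrophils, the pigment genes Dct and Pmel are dark there but in under 3% of cells, and Hbb-bs, a red blood cell transcript, is found in every regressed cluster.

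The first comparison set Tumor2 beside Tumor1 within the regressed tumor, where library, animal and free RNA were shared. The groups held 444956 and 151046 UMIs, and 5612 features with at least 20 UMIs in both groups together were compared (called measured below). At least 2-fold higher in Tumor2 were 1010 of them, 18%, and at least 2-fold lower 585, 10.4%, with a median log2 ratio of 0.16 over all of them. Since Tumor2 held the larger sum, a gene near 0 in Tumor1 could pass the minimum of 20 UMIs through Tumor2 alone.

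Genes of glucose entry and glycolysis were far more abundant in Tumor2. The 22 genes of this list summed to 10313 CPM in Tumor2 (10017 to 10616) and to 2079 CPM in Tumor1 (1855 to 2322), a log2 ratio of 2.31 (2.15 to 2.48). Of 16 measured genes, 14 were at least 2-fold higher in Tumor2 and 0 were lower, with a median log2 ratio of 2.48, beside 18% and 0.16 over all features. The sum was the highest of the 18 regressed clusters, followed by the dividing cells at 5185 CPM and neutrophils at 3425 CPM.

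Along the pathway the difference began at the cell surface. Slc2a1, the main glucose transporter of many tumors, stood at 279 CPM in Tumor2 and 39.7 CPM in Tumor1, and its relative Slc2a3 had 34 UMIs in Tumor2 and 0 in Tumor1 (at least 3.85-fold higher, taking 3 UMIs over the whole group as the limit of a count of 0). Hexokinases split. Hk2, the form that many hypoxic cells induce, was at 155 and 39.7 CPM, with a log2 ratio of 1.96 (0.77 to 3.46). Hk1, the constitutive form, was at 202 and 225 CPM, with a log2 ratio of -0.15 (-0.74 to 0.46). Gpi1 followed at 959.6 CPM (871 to 1055) in Tumor2 and 172 CPM in Tumor1, a log2 ratio of 2.48 (1.91 to 3.11).

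The step that commits sugar to glycolysis is phosphofructokinase. Its liver form Pfkl gave a log2 ratio of 0.93 (0.20 to 1.74) and its platelet form Pfkp 1.47 (0.25 to 2.99). Pfkfb3, which makes the activator of this step, had 44 UMIs against 2, a log2 ratio of 2.90 (0.96 to 5.99). The aldolase Aldoa was the most abundant gene of the list, at 2510.4 CPM in Tumor2 (2365 to 2662) and 563 CPM in Tumor1. Tpi1, which turns one product of the aldolase step into the other, had the highest ratio of the measured enzymes, with 1063 against 99.3 CPM and a log2 ratio of 3.42 (2.68 to 4.27). Pkm, the last enzyme before pyruvate, was at 2034 and 324 CPM, a log2 ratio of 2.65 (2.23 to 3.09). Gapdh, Pgk1, Pgam1 and Eno1 have near-identical copies elsewhere in the genome, and only uniquely mapping reads were counted, so their low counts, such as 155 CPM for Gapdh in Tumor2, are uncertain.

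Lactate production and export stood apart in the same direction. Ldha, which turns pyruvate into lactate, was at 1843 CPM (1719 to 1973) in Tumor2, 331 in regressed Tumor1, 453 in untreated Tumor1 and 476 in progressed Tumor1. After thinning it was seen in 39.5% of Tumor2 cells, 3.28% of Tumor1 cells and 18.9% of NK_T cells. Slc16a3, the lactate exporter of glycolytic cells, had 99 UMIs in 64 Tumor2 cells and 0 in Tumor1, at least 11.2-fold higher. Neutrophils were the cluster that passed Tumor2 for this gene, at 410.1 against 222 CPM. The second exporter Slc16a1 had 10 UMIs in Tumor2 and 2 in Tumor1, too few to be compared.

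**Figure D3:**
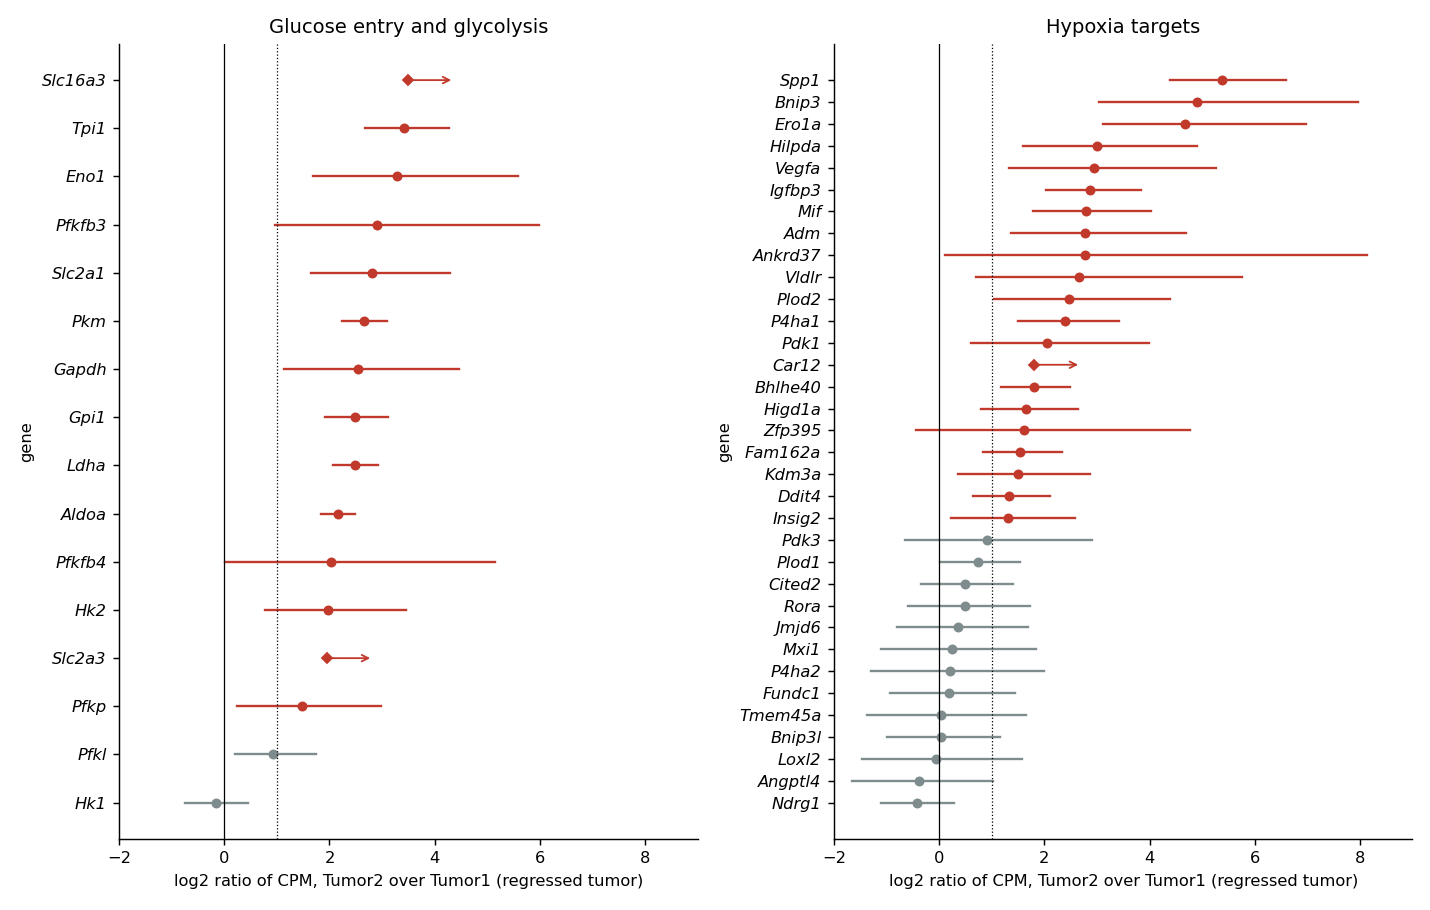
Log2 ratio of CPM in Tumor2 over regressed Tumor1 for the measured genes of the glycolysis list (left) and the hypoxia lists (right), with exact 95% intervals for counting error. Diamonds with arrows are lower bounds for genes with 0 UMIs in Tumor1, red marks genes at least 2-fold higher (dotted line) and grey the others. Only Hk1, Loxl2, Angptl4 and Ndrg1 lie below 0, none of them 2-fold.

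Targets of the oxygen sensing pathway were described in 3 lists by role, with 46 genes in all. Together they summed to 8390 CPM in Tumor2 (8123 to 8663) and 1999 CPM in Tumor1 (1780.2 to 2238). Of 34 measured genes 21 were at least 2-fold higher in Tumor2 and 0 lower, beside 18% and 10.4% over all features. Their median log2 ratio was 1.57. The log2 ratio of the sums was 2.07 (1.90 to 2.24), and 1.67 without Spp1, an alternative chosen after the data were seen. The sum was the highest among the regressed clusters, and the next was Undefined2 at 4520 CPM.

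Of the 10 genes of the sensing machinery itself only 4 were measured, and 1 of these differed, beside 18% of all features that were higher. Egln3, the prolyl hydroxylase that hypoxia induces, had 36 UMIs in Tumor2 and 1 in Tumor1, so it passed the minimum through Tumor2. Its log2 ratio was 3.61 (1.04 to 8.95). Hif1a was at 74.2 CPM in Tumor2 and 79.4 CPM in Tumor1, and Egln1, the main sensor, at 44.9 and 53 CPM. Both intervals of the ratio spanned 0, so no difference in these transcripts was detectable at this depth.

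Among 8 measured targets that act on mitochondria, 4 were at least 2-fold higher, beside 18% over all features. Bnip3 had 177 UMIs in 86 Tumor2 cells and 2 UMIs in 1 Tumor1 cell, which gave 398 against 13.2 CPM and a log2 ratio of 4.91 (3.03 to 7.97). Pdk1, a mitochondrial kinase that inhibits pyruvate dehydrogenase, was at 110.1 and 26.5 CPM, a log2 ratio of 2.06 (0.61 to 3.99). Higd1a and Fam162a, small mitochondrial proteins of the hypoxic response, gave 1.65 and 1.54. Bnip3l, the close relative of Bnip3, was at 74.2 against 72.8 CPM.

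Targets that are secreted or act on matrix held the widest gap of the 3 lists, with sums of 4897 against 609 CPM. Of 12 measured genes 8 were at least 2-fold higher, beside 18% over all features. The log2 ratio of the sums was 3.01 (2.71 to 3.32), and 2.28 (1.96 to 2.61) without Spp1, most of whose UMIs lay in 22 cells. Spp1 had 981 UMIs in Tumor2 and 8 in Tumor1, 2205 against 53 CPM and a log2 ratio of 5.38 (4.40 to 6.60). Ero1a stood at 510.2 CPM in Tumor2 from 227 UMIs and at 19.9 CPM in Tumor1 from 3 UMIs, a log2 ratio of 4.68 (3.12 to 6.97). Vegfa, the vessel growth factor, was at 153 and 19.9 CPM, and Adm, a peptide that widens vessels, at 182 and 26.5 CPM. The log2 ratios were 2.94 for Vegfa (1.34 to 5.26) and 2.78 for Adm (1.37 to 4.69). Igfbp3, which binds insulin-like growth factors, was at 578 and 79.4 CPM. P4ha1 and Plod2, enzymes that modify collagen, gave log2 ratios of 2.38 (1.51 to 3.41) and 2.46 (1.04 to 4.38), and Mif, an inflammatory cytokine, 2.79 (1.78 to 4.03).

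The remaining targets were split, with 9 of 14 measured genes at least 2-fold higher, beside 18% over all features. Hilpda, which protects lipid droplets, was at 211 and 26.5 CPM with a log2 ratio of 3.0 (1.59 to 4.90). Bhlhe40, a repressor that hypoxia induces, was at 528 and 152 CPM with 1.79 (1.17 to 2.48). Ddit4, an inhibitor of the growth kinase mTORC1, gave 1.33 (0.64 to 2.11). The carbonic anhydrase Car12 had 31 UMIs in Tumor2 and 0 in Tumor1, at least 3.51-fold higher, and Car9 had 9 and 0. Ndrg1, often used as a hypoxia marker, went the other way at 133 and 179 CPM, with an interval that spanned 0 (-1.11 to 0.28).

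The promoters of these genes were read for the core letters ACGTG, or CACGT on the other strand, within 250 bases upstream of the start. RefSeq promoters (GRCm38.p6) were found for 54 of the 68 genes of the glycolysis and hypoxia lists, measured or not. Of these, 22 held the letters, 40.7% (27.6 to 55.0). The share was 23.8% of 4353 promoters of the measured features and 16.6% of all 27025 promoters. The lists were made of genes of the pathway that uses this core, so their share does not describe Tumor2. Among list members at least 2-fold higher in Tumor2 the share was 11 of 31, and among the other measured members 5 of 11. A match is a description of letters and not a binding site. Other forms of the core were not read, so a promoter without a match cannot be said to lack a site. The 4 promoters below are shown because their genes carry the differences in lactate handling, mitochondrial turnover and oxidative folding. Each of the 4 holds the letters, unlike most of the 31 higher members. Spp1, Gpi1, Tpi1, Aldoa, Pkm and Vegfa, also at least 2-fold higher, held none in the 250 bases read. Capitals mark the core letters on either strand, and the overlapping form CACGTG holds both. They lie at chr7:46845554-46845803 on the plus strand for Ldha (the first of its starts listed, with 5 matches), chr11:120948817-120949066 on the plus strand for Slc16a3, chr7:138909507-138909756 on the minus strand for Bnip3 and chr14:45318573-45318822 on the minus strand for Ero1a.
Ldha: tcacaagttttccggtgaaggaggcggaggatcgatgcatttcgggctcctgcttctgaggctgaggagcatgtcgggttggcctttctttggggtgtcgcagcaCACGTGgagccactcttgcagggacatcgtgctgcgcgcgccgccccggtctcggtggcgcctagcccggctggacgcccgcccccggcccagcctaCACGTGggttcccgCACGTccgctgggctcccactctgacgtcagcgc
Slc16a3: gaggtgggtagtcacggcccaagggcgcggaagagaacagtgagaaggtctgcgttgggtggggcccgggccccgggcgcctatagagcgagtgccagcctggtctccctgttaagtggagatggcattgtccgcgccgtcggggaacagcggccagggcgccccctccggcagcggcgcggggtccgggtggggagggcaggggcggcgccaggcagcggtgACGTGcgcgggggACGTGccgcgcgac
Bnip3: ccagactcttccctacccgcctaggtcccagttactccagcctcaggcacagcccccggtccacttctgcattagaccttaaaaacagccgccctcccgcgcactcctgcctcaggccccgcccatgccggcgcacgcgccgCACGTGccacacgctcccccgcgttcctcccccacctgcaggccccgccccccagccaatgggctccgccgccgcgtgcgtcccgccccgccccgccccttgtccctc
Ero1a: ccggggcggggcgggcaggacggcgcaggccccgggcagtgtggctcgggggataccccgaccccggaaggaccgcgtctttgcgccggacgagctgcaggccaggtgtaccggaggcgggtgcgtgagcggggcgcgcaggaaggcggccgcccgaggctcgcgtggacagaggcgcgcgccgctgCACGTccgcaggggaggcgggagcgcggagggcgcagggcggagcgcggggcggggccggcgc

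Nuclear-encoded transcripts of the respiratory chain differed little from regressed Tumor1, where those of glycolysis differed much. The 24 nuclear-encoded subunits of the respiratory chain summed to 8760 CPM in Tumor2 and 7673 CPM in Tumor1, a log2 ratio of 0.19 (0.10 to 0.29). Of 23 measured genes 3 were at least 2-fold higher, beside 18% over all features. Against Tumor1 of the untreated and the progressed tumor the same sum was lower in Tumor2, with log2 ratios of -0.20 (-0.27 to -0.12) and -0.24 (-0.30 to -0.19). Cox4i1, a core subunit of the last complex, was at 935 CPM in Tumor2 and 933 CPM in regressed Tumor1. Mitochondrial transcripts took 0.994% of UMIs in Tumor2, and 1.76%, 2.07% and 1.67% in regressed, untreated and progressed Tumor1. Respiration itself was not measured.

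Some chaperones of the endoplasmic reticulum stood higher in Tumor2 as well. The 14 genes of this stress response summed to 6347 against 3357 CPM, a log2 ratio of 0.92 (0.78 to 1.06), the highest sum of the regressed clusters. Of the 14 genes 4 were at least 2-fold higher and 0 lower, a share not far from the 18% over all features. Hspa5, the main chaperone of this compartment, was at 2133 CPM (1999 to 2273) in Tumor2, 854 in regressed Tumor1, 621 in untreated Tumor1 and 798 in progressed Tumor1. Pdia4 and Manf, a disulfide isomerase and a secreted stress protein, gave log2 ratios of 1.26 (0.74 to 1.82) and 1.27 (0.70 to 1.90) against regressed Tumor1. Ddit3, a factor that this stress induces, had 58 UMIs against 6. Xbp1, the factor behind many of these chaperones, was at 191 and 132 CPM with an interval that spanned 0 (-0.19 to 1.31).

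In the amino acid response 4 of 8 measured genes were at least 2-fold higher, beside 18% over all features. They were Asns (asparagine synthetase, 48 against 2 UMIs), the transporter pair Slc7a5 and Slc3a2 with log2 ratios of 2.18 and 1.31, and the mitochondrial folate enzyme Mthfd2 with 1.73. Against untreated Tumor1 2 of 9 were higher and 2 lower, near the shares over all features there of 18.6% and 10.5%. Among redox and metal genes 6 of 10 were at least 2-fold higher and 1 lower, beside 18% and 10.4% over all features. Hmox1, which breaks down haem, was at 164 and 26.5 CPM, the metallothioneins Mt1 and Mt2 at 3603 against 1602 and 2535 against 761 CPM, and the peroxiredoxin Prdx1 at 1618 against 636 CPM. Txnip, which restrains glucose uptake, was the member that stood lower, at 101 against 351 CPM and a log2 ratio of -1.79 (-2.40 to -1.19). It did not stand lower than in untreated or progressed Tumor1, which had 49.9 and 47.1 CPM.

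**Figure D4:**
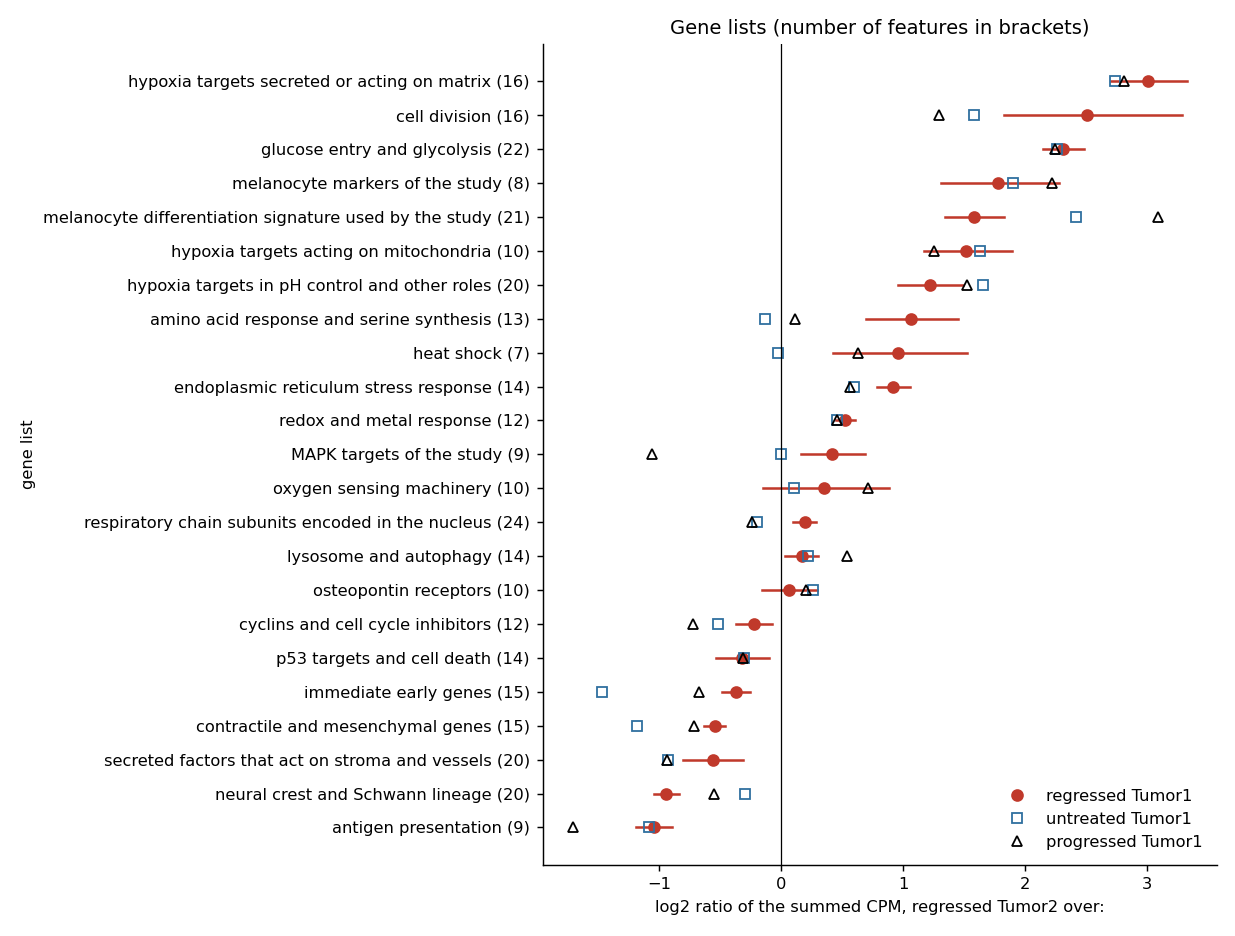
Log2 ratio of the summed CPM of Tumor2 over Tumor1 of the regressed (red, with exact 95% intervals for counting error), untreated (squares) and progressed tumor (triangles) for 23 gene lists, with the number of features in brackets. Glycolysis and the 3 hypoxia lists lie above 1 against all 3 Tumor1 groups, whereas antigen presentation lies below -1 and the MAPK targets range from -1.06 to 0.42.

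Lineage genes showed the opposite direction against regressed Tumor1. The 20 neural crest and Schwann lineage genes summed to 4407 CPM in Tumor2 (4214 to 4607) and 8474 CPM in Tumor1 (8016 to 8952), a log2 ratio of -0.94 (-1.05 to -0.84), and of 15 measured genes 8 were at least 2-fold lower and 0 higher, beside 10.4% over all features. The size moved with how the cells were weighted: it was -0.50 with equal weight per cell and -1.50 as the median of the genes. L1cam, an adhesion molecule of nerve and crest cells, had 14 UMIs against 65, a log2 ratio of -3.77 (-4.72 to -2.93). Ngfr, a receptor used to mark crest-like melanoma cells, had 4 against 16 UMIs. The cadherin Cdh19, the calcium binding protein S100b and the early crest factor Foxd3 gave -1.51, -1.55 and -1.79. Sox10 was lower by less than 2-fold, at 438 against 814 CPM, a log2 ratio of -0.89 (-1.23 to -0.56). Nes and Axl, at 283 and 218 CPM, differed by under 0.02 on the log2 scale. Tumor2 was second to Tumor1 in this sum among the regressed clusters, and the third stood at 2304 CPM.

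Pigment genes looked high in the sum of Tumor2, but 7 cells held them. Dct and Tyrp1, enzymes of melanin synthesis, and Pmel, the scaffold of the pigment granule, had 665, 73 and 199 UMIs, 937 together, and 930 of these, 99.3%, lay in 7 cells with at least 10 of them. The same 7 cells held 36 of 37 UMIs of Mlana, a melanosome protein, and 99 of 100 of Ptgds, which makes a prostaglandin, but 7 of 195 of Sox10. They were deep, with a median of 4130 UMIs, and their glycolysis sum was 2489 CPM against 10849.5 CPM in the other 342 cells. Their transgene level was 315 CPM against 1376 CPM, and 4 of the 7 held a transgene UMI.

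The 8 melanocyte markers of the study gave a log2 ratio of 1.77 (1.31 to 2.27) against Tumor1 with all cells and -0.31 (-0.86 to 0.26) without the 7 cells, an alternative chosen after the data were seen. The 21-gene differentiation signature gave 1.58 (1.34 to 1.83) and -0.86 (-1.16 to -0.55). Dct against all other regressed cells turned from 6.46 to -1.82. Leaving these cells out had to lower the sums, since they were picked by genes of the lists. Mitf, the master factor of melanocytes, was at 92.1 CPM in Tumor2 and 53 CPM in Tumor1 with an interval of the ratio that spanned 0, and 19 of its 41 UMIs lay in the 7 cells. Ednrb, the endothelin receptor of melanoblasts, had 28 UMIs in 22 Tumor2 cells and 0 in Tumor1.

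Spp1 was uneven too. Of its 981 UMIs, 819 (83.5%) lay in 22 cells with at least 10 UMIs each, with up to 141 in 1 cell, and 90 cells held any. In these 22 cells the transgene was at 323 CPM (13 UMIs) against 1406 CPM in the other 327 cells. Their hypoxia sum without Spp1 was 4867 CPM against 6316 CPM. Markers of macrophages, which make osteopontin as well, stood at 174 CPM in the 22 cells (7 UMIs) and at 245 CPM in the others. In Tumor1 of the untreated and the progressed tumor Spp1 had 4 and 3 UMIs, 18.1 and 3.62 CPM. Among the regressed clusters Monocytes1 came next at 1088 CPM, and the 327 Tumor2 cells outside the 22 stood below it, at 400.3 CPM.

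Of the osteopontin receptors 6 of 10 were measured. Cd44, the hyaluronan receptor that also binds osteopontin, was at 310.1 CPM in Tumor2 and 146 CPM in Tumor1. The integrin chains Itga4 and Itgb8 were lower, at 8.99 against 132 and 33.7 against 86.1 CPM. Itgav and Itgb1, the chains of the main osteopontin receptors, gave log2 ratios of -0.82 (-1.59 to -0.03) and 0.29 (-0.02 to 0.61). Of 20 secreted factors that act on stroma and vessels only 6 were measured. Pdgfa, which recruits fibroblasts, was lower in Tumor2, at 346 against 867 CPM, and lower than in untreated and progressed Tumor1, at 703 and 1017 CPM. Tgfb2 was higher at 139 against 46.3 CPM, and Tgfb1 was level at 198 against 179 CPM with a log2 ratio of 0.15 (-0.49 to 0.83).

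The MAPK targets lie downstream of the kinase that vemurafenib inhibits. Their 9 genes summed to 1328 CPM in Tumor2 and 993 CPM in regressed Tumor1, 1328 CPM in untreated and 2765 CPM in progressed Tumor1. The sum hid unequal members. Phlda1, with 333 of the 591 UMIs in Tumor2, was at 748 CPM against 324 in regressed Tumor1, a log2 ratio of 1.21 (0.77 to 1.67). Spry2 and Spry4, inhibitors that the pathway induces against itself, were lower, with log2 ratios of -1.46 (-2.24 to -0.68) and -1.85 (-3.30 to -0.44). Dusp6, the phosphatase most often used as a readout, was at 157 CPM in Tumor2, 86.1 in regressed, 263 in untreated and 355 in progressed Tumor1.

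The 16 cell division genes summed to 679 CPM in Tumor2 and 119 CPM in Tumor1, from 302 and 18 UMIs. Only 5 of the 16 were measured, and 4 of them were at least 2-fold higher, beside 18% over all features. Each of these 4 had 1 to 3 UMIs in Tumor1 and passed the minimum through Tumor2, which largely fixed this count. They were Mcm2, Mcm3 and Mcm6, subunits of the replicative helicase, with 45 against 1, 57 against 2 and 69 against 3 UMIs, and Top2a with 22 against 1. E2f1, which drives entry into replication and is no member of this list, had 48 against 1 UMI. Mki67 had 5 UMIs in Tumor2 and 2 in Tumor1, and the cluster of dividing cells had 6585 CPM for the list. Cdkn2a, which encodes inhibitors of the cell cycle, was lower in Tumor2, at 47.2 CPM against 536, 539 and 478 CPM in Tumor1 of the regressed, untreated and progressed tumor. The cyclin Ccnd3 was lower at 171 against 384 CPM, and Ccnd1 gave 0.24 (-0.10 to 0.59). Of the targets of p53 and cell death genes 8 were measured, with 0 higher and 1 lower, beside 18% and 10.4% over all features.

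Antigen presentation genes stood low. The 9 genes summed to 2050 CPM in Tumor2 (1919 to 2187) and 4230.5 CPM in Tumor1 (3909 to 4572), and Tumor2 was 15th of the 18 regressed clusters. H2-D1, a class I heavy chain, was at 387 against 1648.5 CPM, a log2 ratio of -2.09 (-2.38 to -1.81), and H2-K1 and B2m gave -0.76 and -0.71. Since H2-D1 and H2-Q4 belong to a family of similar genes, their counts can be split by the counting of unique reads. Immediate early genes were 16th, at 4405 CPM, with Jun at 373 against 1106 CPM in regressed Tumor1 and Fos at 930.4 against 947 CPM. Among contractile and mesenchymal genes S100a4 was lower at 425 against 2244 CPM, Fn1, fibronectin, was higher at 303 against 59.6 CPM, and Vim was at 3857 against 3284 CPM. Heat shock genes, lysosomal genes and osteopontin receptors as sums all lay within a log2 ratio of 1 of Tumor1.

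Beyond the lists, the features furthest above 0 against regressed Tumor1 by the nearer bound of the interval were Dct, Spp1, Syt4, Pmel, Ucn2, Slc16a3, Ero1a, Bnip3, Prkg2, Timp1, Osbpl6 and Tyrp1. Syt4, a synaptotagmin of vesicle release, had 409 UMIs in 158 Tumor2 cells and 3 UMIs in 2 Tumor1 cells, 919 against 19.9 CPM and a log2 ratio of 5.53 (3.97 to 7.82). At 300 UMIs per cell it was seen in 20.6% of Tumor2, 1.64% of Tumor1 and 0.556% of NK_T cells, and in 45.3%, 3.28% and 3.33% before thinning. It was spread over the cluster, with 22 of its UMIs in the 7 pigment-rich cells, and the next cluster was the dividing cells at 253 CPM. Timp1, an inhibitor of matrix proteases, was at 1402 CPM (1294 to 1517) in Tumor2, 113 in regressed, 389.8 in untreated and 385 in progressed Tumor1.

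Ucn2, a peptide hormone of the urocortin family, had 107 UMIs in 40 Tumor2 cells and 0 in Tumor1, at least 12.1-fold higher, with 57% of them in 10 cells. Prkg2, a kinase that responds to cyclic GMP, had 89 and 0 UMIs and was at 141 CPM in the dividing cells. Osbpl6, a lipid binding protein, had 73 and 0. The features furthest below 0 were Scn7a, Entpd2, Gfra3, Edil3, H2-Q4, Slc35f1, Csmd1, L1cam, Cyp2j6, Sfrp1, Kcna1 and Cdkn2a. Scn7a, a sodium channel, had 4 UMIs in Tumor2 and 113 in Tumor1, 8.99 against 748 CPM and a log2 ratio of -6.38 (-8.28 to -4.98). Gfra3, a receptor for a glial growth factor, had 2 and 34 UMIs, and Kcna1, a potassium channel, was at 211 against 1933 CPM.

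Against the regressed cluster that stood next, the widest gaps were those of Pmel, Mlana, Dct, Ptgds and Tyrp1, which the 7 cells carried, and of Ero1a, Pth2r, Mt3, Ucn2 and Syt4. Ero1a was at 510.2 CPM against 88.1 CPM in mast cells, a log2 ratio of 2.53. Mt3, a metallothionein, had 27 UMIs in 16 Tumor2 cells and 0 in Tumor1 and stood next in the NK_T cluster at 7.43 CPM. Pth2r, a receptor of the parathyroid hormone family, had 19 UMIs in 17 cells. The dividing cells were often the next cluster, at 340.2, 598, 923 and 1215 CPM for Gpi1, Tpi1, Aldoa and Pkm, and 41 of these 75 cells held a transgene UMI.

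Against all other 3377 cells of the regressed tumor, with 11968312 UMIs, 14985 features were measured, and 2114 (14.1%) were at least 2-fold higher in Tumor2 and 2434 (16.2%) lower. In the glycolysis list 19 of 22 measured genes were higher and 0 lower, and the sum gave a log2 ratio of 2.32 (2.27 to 2.36) and 2.06 under another scaling of the totals. In the hypoxia lists 27 of 45 were higher and 4 lower. In the neural crest list 13 of 18 were higher and 3 lower, with Ngfr among the lower ones at 9.0 against 82.5 CPM. Of the 9 antigen presentation genes 8 were lower and 0 higher.

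The last comparison set regressed Tumor2 beside Tumor1 of the other tumors. Here depth, animal and sex also differed. Xist, which coats the silenced X in females, had 0 UMIs in regressed Tumor2 and Tumor1 and stood at 1845 and 1911 CPM in untreated and progressed Tumor1, while Y-linked genes stood at 184 CPM in regressed Tumor2. Treatment cannot be told apart from this. Against untreated Tumor1, 18.6% of 5916 measured features were at least 2-fold higher and 10.5% lower. Against progressed Tumor1 these were 12.2% and 9.06% of 8054. In the glycolysis list 15 of 16 and 15 of 18 measured genes were higher and 0 lower, and the sums gave log2 ratios of 2.26 (2.12 to 2.40) and 2.25 (2.17 to 2.33). In the hypoxia lists 25 of 36 and 24 of 38 were higher, and 2 and 1 lower. These comparisons share the Tumor2 cells and are not independent of each other.

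Across the 4 tumor cell groups, Gpi1 was at 959.6 CPM in Tumor2, 172 in regressed, 18.1 in untreated and 70.0 CPM in progressed Tumor1. Bnip3 was at 398, 13.2, 9.07 and 16.9 CPM in the same order, and the 3 Tumor1 groups overlapped in their intervals. Vegfa was at 153, 19.9, 9.07 and 10.9 CPM. Slc2a1 was at 279, 39.7, 40.8 and 15.7 CPM. In each of these genes Tumor2 stood above all 3 Tumor1 groups. Others did not follow this order. Calr, a chaperone, was at 791 CPM in Tumor2, 424 in regressed, 848 in untreated and 905 CPM in progressed Tumor1, and Cd44 at 310.1, 146, 354 and 283 CPM. The features furthest from 0 against both Tumor1 groups were Dct, Spp1, Pmel, Ero1a and Ptgds above and Gfra3, Scn7a, Cyp2j9, Adam19 and Cdkn2a below. Adam19, a membrane protease, had 5 UMIs in Tumor2 and was at 11.2 CPM against 186 and 179 CPM.

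Each of the 8 Tumor2 cells of the other tumors held more UMIs than the median Tumor2 cell of the regressed tumor, at 768. The 4 untreated cells had 5771 to 21176 UMIs, and the 4 progressed ones 1709 to 3979. None of the 8 held an Spp1 UMI. In the untreated tumor 2 of the 4 held 59 and 99 UMIs of Dct, Pmel and Tyrp1 and no transgene UMI, and the others held 67 and 8 transgene UMIs with 1 and 0 pigment UMIs. In the progressed tumor 1 cell held 234 pigment UMIs, the others 0, and each held 3 to 5 transgene UMIs. With so few cells the 2 groups are not compared.

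Within Tumor2 the cells were spread widely. The glycolysis list took a median of 0.826% of a cell's UMIs in Tumor2 (quartiles 0.412% and 1.70%, highest 5.26%), 0.140% in regressed Tumor1 (highest 0.457%), 0.149% in untreated and 0.179% in progressed Tumor1. The median of Tumor2 thus lay above the highest cell of any Tumor1 group, at 0.528%. The neural crest list took 0.338% in Tumor2 and 0.647% in regressed Tumor1.

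**Figure D5:**
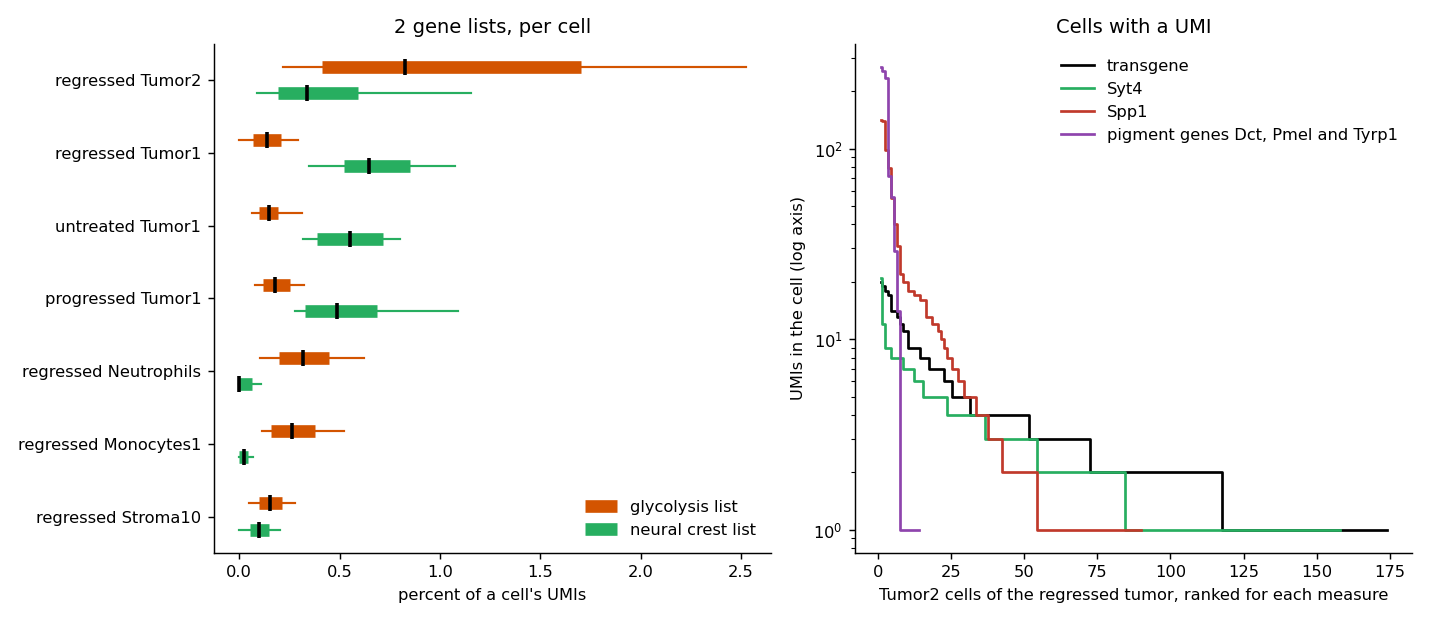
Left, percent of each cell's UMIs in the glycolysis and neural crest lists, with the median (black), the quartiles (bar) and the 10th to 90th percentile (line). Right, UMIs per cell (log axis) of the transgene, Syt4, Spp1 and the pigment genes in the Tumor2 cells that hold any, ranked for each measure. The glycolysis bar of Tumor2 lies to the right of the others, and 7 cells hold at least 10 pigment UMIs while the Syt4 curve reaches 158 cells.

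The 349 cells were then put in 4 classes of 87 or 88 by their share of glycolysis UMIs, and the other lists were read in each. The limits were 0.412%, 0.826% and 1.70%, which are points on a continuous range and not borders of types, and the median depth was 825, 793, 751 and 742 UMIs from the lowest class to the highest. The hypoxia lists without Spp1 summed to 2423, 2895, 7910 and 13564 CPM. Endoplasmic reticulum genes summed to 4466, 5367, 8188 and 8184 CPM, and Syt4 to 624, 769, 1040.3 and 1371 CPM. The MAPK targets followed, at 875, 761, 1524 and 2453 CPM. Neural crest genes, though lower in Tumor2 than in regressed Tumor1, were also highest in the highest class, at 3566, 3750, 4913 and 5834 CPM. The 7 pigment-rich cells lay in the lowest class, with 28531 of its 123390 UMIs but 44 of its 440 neural crest UMIs. The step from the lowest class to the next is therefore uncertain. Cell division genes went the other way, at 794, 1169, 422 and 144 CPM, and were seen in 37, 39, 19 and 11 cells. The transgene was level, at 1345, 1091, 1483 and 1371 CPM, and so were the leukocyte markers at 478, 573, 649 and 526 CPM. Spp1 showed no order, at 851, 4299, 1844 and 1536 CPM, and 932 of the 937 pigment UMIs lay in the lowest class.

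Depth and transgene classes were compared as well. The glycolysis sum was 14279 CPM in 37 cells under 500 UMIs, 11590.5 CPM in 191 cells from 500 to under 1000 and 9510.5 CPM in 121 cells of at least 1000 UMIs, so the shallow cells did not carry less of it. It was 10163 CPM in the 174 cells with a transgene UMI and 10509.6 CPM in the 175 cells without. Spp1 was at 1477 CPM in the former and 3153 CPM in the latter. Neural crest genes were at 4571 and 4193 CPM and Syt4 at 814 and 1056 CPM in the same order. The cells had been clustered by expression, and Syt4 was picked as high in Tumor2. These values therefore cannot tell whether the cells without a transgene UMI were tumor cells.

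Markers of other cell types were present at low levels in Tumor2. Fibroblast markers (9 genes) summed to 3760 CPM in Tumor2, 7077 CPM in regressed Tumor1 and up to 60333 CPM in a stromal cluster, and Tumor2 was 15th of 18. Leukocyte markers summed to 553 and 364 CPM, with Ptprc, the pan-leukocyte phosphatase, at 18 CPM (8 UMIs) in Tumor2. Monocyte and macrophage markers were at 238 and 417 CPM, endothelial ones at 15.7 CPM (7 UMIs), keratinocyte ones at 1088 and 1125 CPM, and mast cell ones at 510.2 and 516 CPM. Pericyte markers were at 539 and 1205 CPM, and Tumor2 ranked 3 of 18 for them. Haemoglobin genes took 0.316% of Tumor2 UMIs and 0.314% of Tumor1 UMIs. A total of 274 Tumor2 cells held 2 or more UMIs of leukocyte or fibroblast markers. In the 75 that did not, the glycolysis sum was 13881 CPM and the hypoxia sum 10262 CPM. These 75 were also shallow, with 46971 of the 444956 UMIs of the 349 cells, so depth and marker content cannot be told apart here. The part of free RNA or doublets in single cells of Tumor2 was not tested.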

How the data were processed

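Single cells of 3 mouse tumors, 1 per group, were measured by 3' RNA sequencing with UMIs. The deposited values are counts of UMIs per gene and cell, which the authors made with GSNAP on GRCm38 (mm10) from uniquely mapped sense reads over exons, leaving out cells under 300 UMIs. The annotation release is not given in the sources used here. Cluster names were used as deposited by the authors, who clustered with Seurat 2.2.0. Totals per cell were summed from the counts and exceeded the deposited totals by 5.02%. This excess was 3.92% in regressed Tumor2, 3.17% in regressed Tumor1 and 89.5% in regressed Erythrocytes.

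Cells named Tumor2 were taken as members. Libraries held 22202192, 12413268 and 26948940 UMIs (untreated, regressed, progressed). The tables held 36530 features, of which 31049 matched a symbol and 5479, with 3.74% of UMIs, did not. All 12670 cell names were unique running identifiers, so barcodes shared between libraries could not be counted. No doublet caller was run.

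UMIs were summed per group and scaled to CPM, with exact Poisson intervals, and ratios were given exact conditional binomial intervals. Features with at least 20 UMIs in both groups together were compared, and a feature was counted as higher or lower at 2-fold. Folds against a group with no UMI were computed as if it had held 3 in all. With 1 tumor per group there was no test. Shares were given at 300 UMIs per cell by random thinning. Of these steps only the ratio intervals were checked on simulated counts. These were drawn without variation between cells, so the check does not cover genes that lie in few cells.

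Beyond the lists, the genes named were the 12 furthest above and below 0 against regressed Tumor1 by the nearer bound, the 10 highest above their next cluster, and the 5 furthest each way against Tumor1 of both other tumors, leaving out Xist, Y-linked, haemoglobin and unnamed features. Single genes named within lists, or drawn in the dot plot, were picked after values were seen. Some alleles and genes are not reported here. The members, the 23 gene lists and the 12 marker lists were chosen with earlier results of these data known. Alternatives covered scaling (TMM, edgeR 4.0.16), thinning, depth, transgene cells, cell weights and feature minimum. Python 3.11.15, numpy 2.4.6, scipy 1.17.1, pandas 2.3.3, matplotlib 3.10.9 and R 4.3.3 were used.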

Additional observations from a re-analysis of the deposited data

How the results depend on the processing

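The direction of the glycolysis, hypoxia and neural crest sums held under all settings run. For Tumor2 against regressed Tumor1, features at least 2-fold higher and lower numbered 372 and 105 thinned to 300 UMIs, 455 and 215 with a minimum of 50 UMIs, and 1760 and 2336 with a minimum of 1. The log2 ratio of the glycolysis sum was 2.82 thinned, 2.89 without the deepest 5% of cells and 2.95 with equal weight per cell. The neural crest sum gave -0.57 thinned, -0.57 without the deepest cells, -0.50 with equal weight, -1.06 in cells of at least 1000 UMIs and -1.50 as the median gene. The hypoxia sum gave 1.57 as the median gene, 1.67 without Spp1 and 1.82 in transgene cells. The melanocyte differentiation signature reversed to -0.44 thinned, -0.14 without the deepest cells and -0.86 without the 7 pigment-rich cells, and the melanocyte markers to -0.31 without those. Against all other regressed cells the counts were 1369 and 1515 thinned, and 792 lower without tumor cells holding other markers. There glycolysis gave 2.17 as the median gene, 2.06 with TMM, 2.25 with totals lacking haemoglobin, mitochondrial and ribosomal genes, 2.53 thinned, 2.21 at 1000 UMIs, 2.51 without the deepest cells, 2.49 with equal weight, 2.75 without tumor cells holding other markers, 2.39 without pigment-rich cells and 2.26 without erythrocytes, and Dct reversed to -1.82 without pigment-rich cells. Against untreated Tumor1 the counts were 284 and 132 thinned, and glycolysis gave 2.56 as the median gene, 2.44 thinned, 2.58 without the deepest cells and 2.78 with equal weight. Without pigment-rich cells the melanocyte markers reversed there to -0.19 and the signature to -0.023. Against progressed Tumor1 the counts were 301 and 164 thinned, and glycolysis gave 2.06 with TMM, 2.51 thinned, 2.13 at 1000 UMIs, 2.40 without the deepest cells and 2.57 with equal weight. The share of Tumor2 was 0.263%, 25.4% and 0.384% of transgene cells and 8.33%, 85.1% and 2.50% of tumor cells (untreated, regressed, progressed), and 4.0% of regressed cells of at least 1000 UMIs. Shares at 1000 UMIs per cell cover only the 121 of 349 Tumor2 cells that reached this depth, a deeper set than at 300 UMIs. In these 121 cells tWPRE was seen in 45.5%, Spp1 in 26.4%, Gpi1 in 52.9%, Bnip3 in 17.4% and Ero1a in 19.0%. The cause of these shifts was not tested.

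Leaving out pigment-rich cells or Spp1 was chosen after seeing the data. With 1 tumor per group no replicate was left out. No paired analysis was possible because each group was 1 sample. Tumor1 comparisons without tumor cells holding other markers were not run, since 2, 1 and 0 Tumor1 cells remained in the regressed, untreated and progressed tumor. Shallow cells limit single-gene shares, and a share of 0 at 300 UMIs says that no UMI was seen, not that the cells lack the gene.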
